A study of Homo sapiens with 8 samples.

Results

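Thyroid cancer driver genes were followed here as 7 genes chosen by name: the oncogenes BRAF, NRAS and HRAS, the telomerase gene TERT, and the tumour suppressors NF1, CDKN2A and RB1. All 7 were found by symbol among the 58884 genes of the expression tables, each under 1 gene identifier. The data were bulk RNA-seq of 4 established human thyroid cancer cell lines in which NR1D1, a heme-binding nuclear receptor of the circadian clock that represses transcription, was lowered or raised. 8505C and CAL-62, both from anaplastic carcinomas, received an NR1D1 siRNA or a control siRNA. TPC-1, from a papillary carcinoma, and FTC-133, from a follicular carcinoma, received an NR1D1 expression vector or an empty one. All 8 libraries were labelled WT in genotype, and each group was 1 library with no replicate. Transfection efficiency and harvest time are not given in the sources used here.

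BRAF and the RAS proteins sit at the top of the MAPK cascade: RAS, when bound to GTP, recruits RAF kinases to the membrane, and RAF phosphorylates MEK, which phosphorylates ERK. Mutations that lock BRAF or RAS in the active state are the best known drivers of thyroid carcinoma, and neurofibromin, the product of NF1, counters them by speeding up GTP hydrolysis on RAS. CDKN2A encodes p16INK4a, which inhibits the kinases CDK4 and CDK6 and so keeps the retinoblastoma protein RB1 bound to E2F factors, and, from another first exon, p14ARF, which inhibits MDM2. TERT is the catalytic subunit of telomerase, is silent in most somatic tissues, and is reactivated in many aggressive thyroid tumours. The values below are gene-level RNA amounts. They hold no variant calls, so which of these genes carried a mutation in which line was not analysed here.

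CDKN2A was the member with the widest range over the lines, from 0 to 155 TPM, and its RNA starts at 2 places. TPM is a length-corrected share of RNA that sums to 1000000 in each library. The 2 windows below are shown because a gene-level value adds the RNA from both starts, so that p16INK4a and p14ARF could not be told apart. They run from 250 bases before to 50 bases after each start in RefSeq on GRCh38.p14, are written 5′ to 3′ on the minus strand of chromosome 9, and lie 20467 bases apart. Capitals mark the hexamer GGGCGG, the core of a GC box, which was searched on both strands.
CDKN2A start for p14ARF, chr9:21995275-21995574: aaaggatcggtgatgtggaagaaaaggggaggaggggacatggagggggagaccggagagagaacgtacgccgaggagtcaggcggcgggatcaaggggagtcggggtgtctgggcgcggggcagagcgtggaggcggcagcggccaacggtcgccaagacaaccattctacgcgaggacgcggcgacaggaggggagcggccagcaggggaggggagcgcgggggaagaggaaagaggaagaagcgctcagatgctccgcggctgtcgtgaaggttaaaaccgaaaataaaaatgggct
CDKN2A start for p16INK4a, chr9:21974808-21975107: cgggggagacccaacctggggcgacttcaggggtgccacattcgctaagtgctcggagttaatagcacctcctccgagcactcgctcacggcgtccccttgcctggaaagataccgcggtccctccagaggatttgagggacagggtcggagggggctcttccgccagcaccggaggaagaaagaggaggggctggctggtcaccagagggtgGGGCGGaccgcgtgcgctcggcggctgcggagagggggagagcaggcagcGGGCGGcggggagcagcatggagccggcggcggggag

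The window at the p16INK4a start held the hexamer 2 times, and the window at the p14ARF start held it 0 times. Over all 35116 RefSeq windows of the same length, 45.0% held it at least once. The p14ARF window had 28 CpG dinucleotides and the p16INK4a window had 26, against a median of 14 over all windows. Windows with at least 28 made up 26.2% of the total, and windows with at least 26 made up 30.1%. A match is a string of letters and not a measured binding site, and neither methylation nor binding was measured in these libraries.

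The libraries held between 12855622 and 23184864 recovered reads, and between 23511 and 25679 genes above 0. NR1D1 itself was at 11.2 TPM with its siRNA against 18.2 TPM with the control siRNA in 8505C, and at 10.1 against 22.0 TPM in CAL-62. In TPC-1 it was at 209 TPM with the NR1D1 vector against 190 TPM with the empty vector, and in FTC-133 at 137 against 105 TPM, so the labelled direction held in all 4 pairs, by 1.10-fold in TPC-1. Genes of the mitochondrial genome took 67.8% of TPM in CAL-62 with the NR1D1 siRNA and 57.2% in CAL-62 with the control siRNA, against 15.7% to 29.3% in the other 6 libraries. This lowers every nuclear gene of CAL-62 on the TPM scale, and the median log2 ratio over all genes tested was -0.28 in that line, against 0.05 in 8505C, -0.02 in TPC-1 and 0.05 in FTC-133. After scaling by trimmed mean of M-values the CAL-62 median was -0.07. Of the markers of differentiated thyroid, TG and SLC5A5 reached at most 0.69 TPM in any library, and TSHR, the thyrotropin receptor, was at 1.96 TPM with the NR1D1 vector against 1.35 TPM with the empty vector in FTC-133 and near 0 in the other lines. PAX8, a thyroid transcription factor, was at 53.7 to 330 TPM in CAL-62, TPC-1 and FTC-133 and at 0.50 TPM in both 8505C libraries, and NKX2-1, another, was at 63.4 TPM or above in 8505C, at 14.2 TPM or above in FTC-133 and listed at 0 in CAL-62 and TPC-1. The leukocyte marker PTPRC was at most 0.056 TPM, and CDH5, an endothelial cadherin, was at 140 TPM with the NR1D1 siRNA against 46.8 TPM with the control siRNA in 8505C and at most 0.169 TPM elsewhere. The endothelial markers PECAM1 and VWF were low in 8505C, at 5.15 against 2.66 TPM and at 0.374 against 0.0223 TPM. PDGFRA, a receptor of connective tissue cells, was at most 0.285 TPM in any library. LUM, a proteoglycan of connective tissue cells, was at 65.7 TPM with the NR1D1 vector against 26.8 TPM with the empty vector in FTC-133, while DCN, another, was at 0.987 against 4.42 TPM. The epithelial keratin KRT8 was at 89.3 against 14.0 TPM there. The part of these differences in the results below was not tested. In bulk RNA, a change in the share of cells of 1 kind cannot be told apart from a change in RNA per cell.

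**Figure D1:**
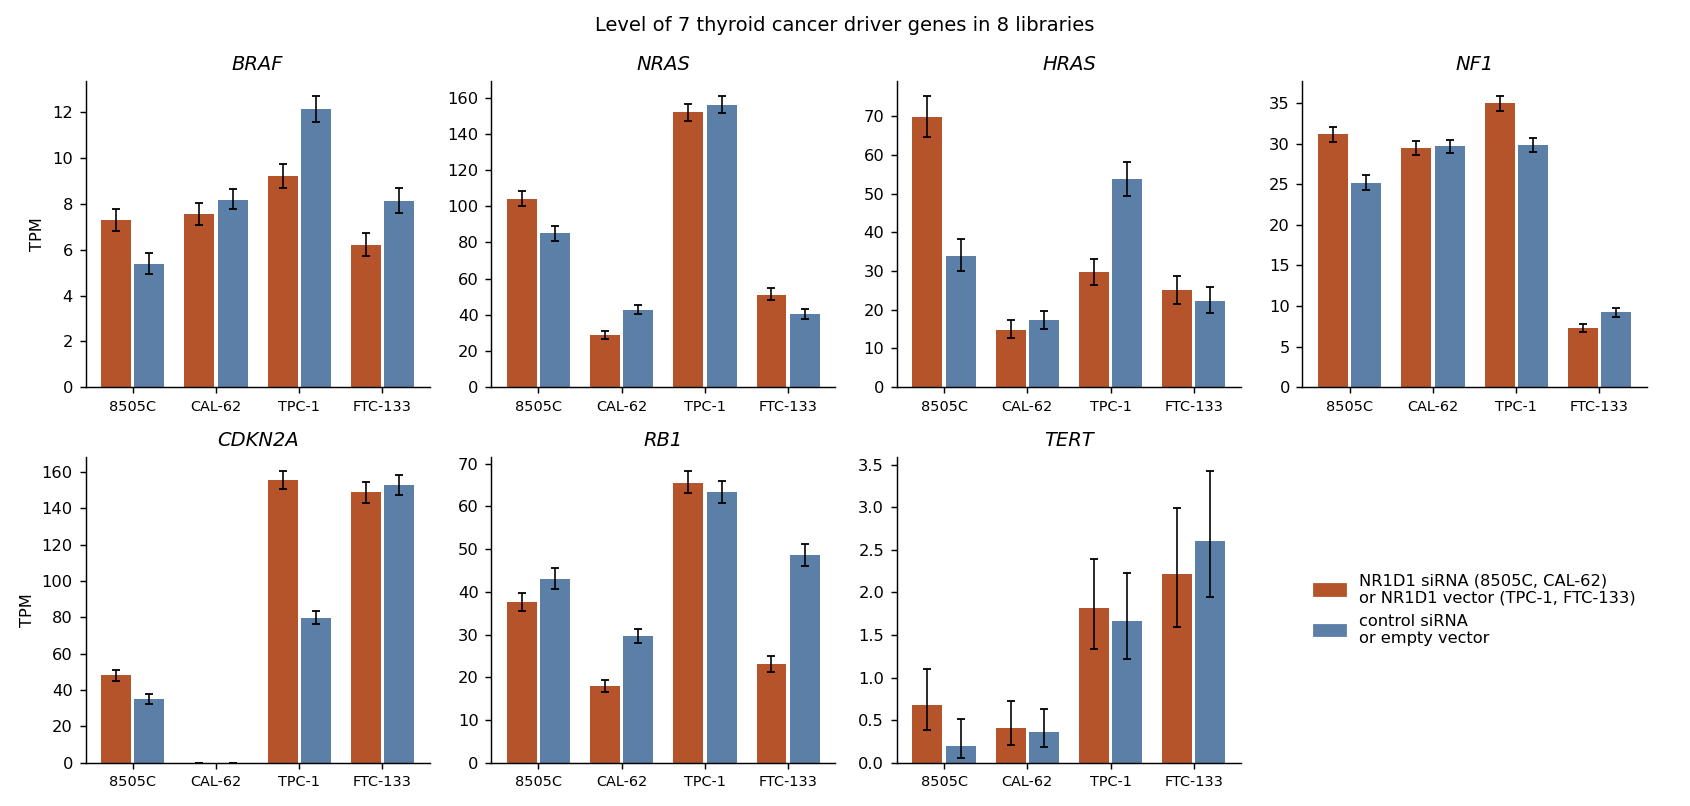
Level of each of the 7 driver genes in TPM (vertical axis, from 0) in the 4 lines, with the NR1D1 siRNA or vector library as the brown bar and its control as the blue bar. Error bars are 95% Poisson intervals of the recovered reads, which cover counting error only. CDKN2A is at 0 in both CAL-62 libraries, NF1 is lowest in both FTC-133 libraries, and TERT stays under 3 TPM everywhere.

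NRAS, a membrane GTPase, was the most abundant of the 3 oncogenes of the RAS and RAF classes. It was at 104 TPM with the NR1D1 siRNA against 85.0 TPM with the control siRNA in 8505C. In CAL-62 it was at 28.7 TPM with the NR1D1 siRNA against 42.8 TPM with the control siRNA. In TPC-1 it was at 152 TPM with the NR1D1 vector against 156 TPM with the empty vector, and in FTC-133 at 51.2 against 40.3 TPM. The TPC-1 pair thus stood above the 8505C pair, which stood above the other pairs. FTC-133 and CAL-62 overlapped, and they did so after trimmed mean scaling too. Without mitochondrial genes in the sum they did not: CAL-62 was at 89.1 to 100.1 TPM and FTC-133 at 48.8 to 60.7 TPM. The log2 ratio on the log2(TPM + 1) scale, the scale of all log2 ratios below unless another is named, was 0.29 in 8505C, -0.56 in CAL-62, -0.04 in TPC-1 and 0.34 in FTC-133. The CAL-62 value was -0.32 after trimmed mean scaling and -0.17 without mitochondrial genes in the sum.

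HRAS, its close relative, differed between the libraries of a pair more than NRAS did in 8505C and in TPC-1. In 8505C it was at 69.8 TPM with the NR1D1 siRNA against 34.0 TPM with the control siRNA, a ratio of 2.05 with a 95% counting interval of 1.78 to 2.38. In TPC-1 the order was the opposite, with 29.7 TPM with the NR1D1 vector against 53.7 TPM with the empty vector, a ratio of 0.553 with an interval of 0.480 to 0.634. CAL-62 had 14.8 TPM with the NR1D1 siRNA against 17.3 TPM with the control siRNA, and FTC-133 had 25.1 TPM with the NR1D1 vector against 22.4 TPM with the empty vector. Both of these intervals of the ratio include 1. By label NR1D1 was lowered in the 8505C library with more HRAS and raised in the TPC-1 library with less HRAS, whereas the FTC-133 pair lay the other way round. The direction in CAL-62 turned with the scale: its log2 ratio was -0.21, but 0.03 after trimmed mean scaling and 0.19 without mitochondrial genes in the sum. HRAS exceeded the 2-fold threshold in 8505C, at a log2 ratio of 1.02, and lay just under it after trimmed mean scaling, at 0.95, where 10.7% of all genes were 2-fold higher. Intervals of this kind cover counting error only. They say nothing of how a second library of the same group would vary.

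In every library NRAS had the higher level of the RAS pair, from 1.49 times HRAS in 8505C with the NR1D1 siRNA to 5.12 times in TPC-1 with the NR1D1 vector. On the scale used here ARAF, a related kinase, was 2.86 to 9.81 times as high as BRAF in all 8 libraries. These levels per length depend on the length assigned to each gene: the joined exons of BRAF span 23432 bases and those of HRAS 1854 bases, and an annotated exon that few RNAs contain lowers the TPM of its gene.

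BRAF, the RAF kinase that is most often mutated in thyroid carcinoma, kept to a narrow range of 5.40 to 12.1 TPM over the 8 libraries. It was at 7.29 TPM with the NR1D1 siRNA against 5.40 TPM with the control siRNA in 8505C, a ratio of 1.35 with an interval of 1.21 to 1.51. In CAL-62 it was at 7.55 against 8.19 TPM, a ratio of 0.923 with an interval of 0.850 to 1.001. With the NR1D1 vector it was lower in both lines, at 9.21 TPM against 12.1 TPM with the empty vector in TPC-1 and at 6.22 against 8.13 TPM in FTC-133. The 2 ratios were 0.759 and 0.765, with intervals of 0.705 to 0.817 and 0.688 to 0.851. BRAF was therefore lower in the library with more NR1D1 by label in 8505C, TPC-1 and FTC-133. In CAL-62 the direction turned with the scale, with a log2 ratio of -0.10, but 0.12 after trimmed mean scaling and 0.28 without mitochondrial genes in the sum. No pair reached a 2-fold difference. TPC-1 had the highest level in both libraries, and FTC-133 overlapped both CAL-62 and 8505C. Without mitochondrial genes in the sum, or after trimmed mean scaling, CAL-62 was the highest line for BRAF.

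NF1 was set apart by FTC-133. It was at 7.32 TPM with the NR1D1 vector against 9.23 TPM with the empty vector in FTC-133. In 8505C it was at 31.2 TPM with the NR1D1 siRNA against 25.2 TPM with the control siRNA, in CAL-62 at 29.4 against 29.7 TPM, and in TPC-1 at 35.0 TPM with the NR1D1 vector against 29.9 TPM with the empty vector. The FTC-133 mean over its pair was lower than that of the next line by 3.41-fold. The gap was 3.23-fold after trimmed mean scaling and 3.99-fold when genes of the mitochondrial genome were left out of the sum, so FTC-133 was lowest on all 3 scales. The order of the other lines changed with the scale. The log2 ratios within lines were 0.30 in 8505C, -0.01 in CAL-62, 0.22 in TPC-1 and -0.30 in FTC-133, all under the 2-fold threshold. The CAL-62 value was 0.24 after trimmed mean scaling and 0.40 without mitochondrial genes in the sum.

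The neighbours and inner genes of NF1 did not share its low level in FTC-133. UTP6 and COPRS, which lie near it on chromosome 17, were at 74.4 and 171 TPM with the NR1D1 vector and at 67.9 and 156 TPM with the empty vector in FTC-133, above their levels in all 6 other libraries. EVI2A, a gene inside an NF1 intron on the opposite strand, was at 57.4 TPM with the NR1D1 vector against 84.5 TPM with the empty vector in FTC-133 and at 27.9 against 12.8 TPM in TPC-1. In 8505C and CAL-62 it was at most 1.48 TPM. Over the 8 libraries EVI2A ran from 0.00904 to 9.16 times the level of NF1. Whether reads were counted by strand is not given in the sources used here, and EVI2A and NF1 share 152 exon bases of the 27130 of NF1. RASA1, a further GTPase-activating protein of RAS, was 1.58 to 6.24 times as high as NF1 in all 8 libraries.

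CDKN2A was listed at 0 in both CAL-62 libraries and was abundant in the other 3 lines. For CAL-62, a count of 0 allows a level of up to 0.118 TPM with the NR1D1 siRNA and up to 0.0965 TPM with the control siRNA, taking 3 reads as the limit. In 8505C it was at 48.1 TPM with the NR1D1 siRNA against 34.9 TPM with the control siRNA, a ratio of 1.38 with an interval of 1.25 to 1.52. In TPC-1 it was at 155 TPM with the NR1D1 vector against 79.8 TPM with the empty vector, a ratio of 1.95 with an interval of 1.85 to 2.06 and a log2 ratio of 0.95, just under the 2-fold threshold. In FTC-133 it was at 149 against 153 TPM, and the interval of that ratio includes 1. All 12 broadly used genes examined, such as ACTB and GAPDH, were above 0 in all 8 libraries, the lowest at 3.28 TPM.

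Absence on its own was common: 27.8% of 19945 protein-coding genes lay under 0.1 TPM in both CAL-62 libraries, and 24.3% did so in 8505C, 26.9% in TPC-1 and 24.4% in FTC-133. Absence of a gene that all other lines use was not. Of 5893 protein-coding genes with at least 10 TPM in the 6 libraries of the other lines, 5 were under 0.1 TPM in both CAL-62 libraries, which is 0.0848%. They were CDKN2A, its neighbour CDKN2B, FBXL7, LAYN and SRGN, and 4 of them were at 0 in both. The same count was 1 of 4637 in 8505C (0.0216%), 2 of 4605 in TPC-1 (0.0434%) and 2 of 4978 in FTC-133 (0.0402%). These genes were picked out after their values were seen.

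Low values in CAL-62 were found for most, but not all, genes in a stretch of chromosome 9 around CDKN2A, which is a recurrent site of loss in human tumours. DNA was not measured here. CDKN2B, which encodes the related CDK inhibitor p15INK4b, was at 0 in both CAL-62 libraries. Elsewhere it was at 64.7 TPM with the NR1D1 siRNA against 40.8 TPM with the control siRNA in 8505C, at 34.1 TPM with the NR1D1 vector against 21.4 TPM with the empty vector in TPC-1, and at 68.6 against 157 TPM in FTC-133. MTAP, an enzyme of methionine salvage, had 13 reads with the NR1D1 siRNA and 14 reads with the control siRNA in CAL-62, or 0.152 and 0.133 TPM, against 8.35 to 17.3 TPM in the other 6 libraries. From the start of MTAP to the end of CDKN2B, over 318555 bases, 11 genes were annotated. Of these, 10 were above 0 in a library of another line, and 7 of those 10 were at 0 in both CAL-62 libraries. The remaining 3 were MTAP, the processed pseudogene TUBB8P1 and CDKN2B-AS1, an antisense RNA that reaches beyond the stretch. Of the 7 at 0, those other than CDKN2A and CDKN2B were at most 5.84 TPM in any library. ERVFRD-3 was at most 0.481 TPM and was also at 0 in both TPC-1 libraries. How often genes at such levels elsewhere were at 0 in CAL-62 was not counted over all genes. The stretch was chosen with earlier results of these data known. In CAL-62, with the NR1D1 siRNA and the control siRNA, CDKN2B-AS1 was at 0.703 and 1.06 TPM and TUBB8P1 at 1.65 and 1.915 TPM. In FTC-133, with the NR1D1 vector and the empty vector, they were at 0.761 and 0.882 TPM and at 1.34 and 0.635 TPM. The highest values were 2.31 TPM for CDKN2B-AS1, in TPC-1, and 9.24 TPM for TUBB8P1, in 8505C. Whether TUBB8P1 shared reads with near-identical copies, and which part of CDKN2B-AS1 was read, was not tested.

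Beyond that stretch RNA of several genes was present in CAL-62. On one side KLHL9, a ubiquitin ligase adaptor, was at 32.0 TPM with the NR1D1 siRNA against 48.5 TPM with the control siRNA. IFNE, an interferon gene, was at 13.3 against 19.8 TPM, and MIR31HG, the host gene of a microRNA, was at 5.51 against 34.8 TPM. Also on that side, RN7SL151P and MIR31 were at 0 in both CAL-62 libraries, and KHSRPP1 was at most 0.0787 TPM. RN7SL151P and KHSRPP1 were at 2.97 TPM or more in 8505C and at most 0.816 TPM in TPC-1 and FTC-133. On the other side DMRTA1 was at 1.71 against 2.59 TPM. IFNE in CAL-62 with the control siRNA was the highest of all 8 libraries, and MIR31HG there was below only 8505C with the control siRNA, at 37.3 TPM.

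**Figure D2:**
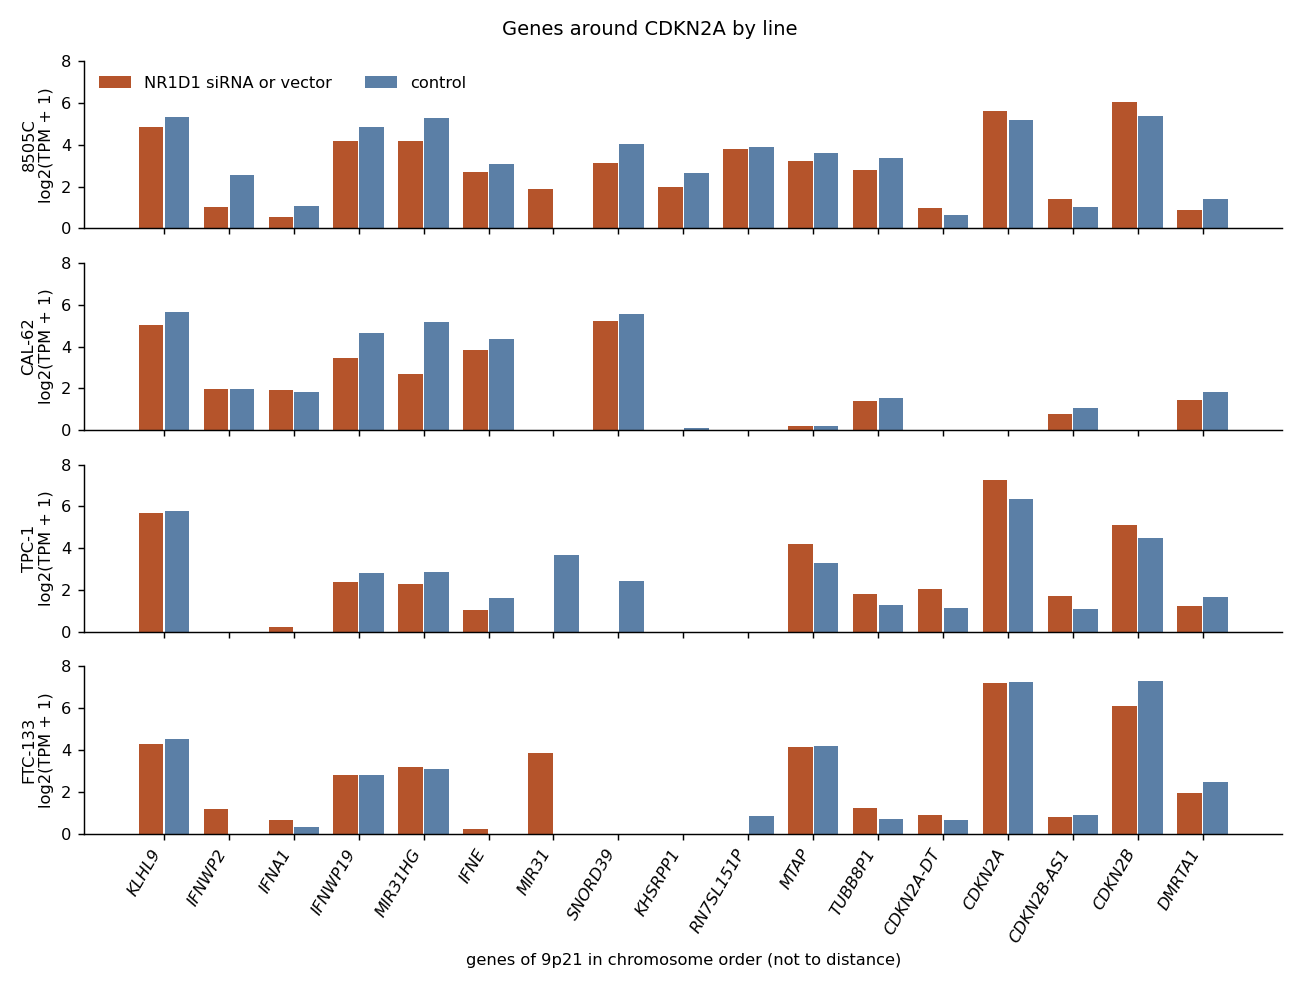
Levels of named genes around CDKN2A in chromosome order (horizontal axis, not to distance) as log2(TPM + 1) in the 4 lines, with the NR1D1 siRNA or vector library in brown and its control in blue. In CAL-62 the bars of CDKN2A, CDKN2B, CDKN2A-DT, RN7SL151P and MIR31 are missing, and MTAP and KHSRPP1 are near 0. KLHL9 and IFNE stand at 13.3 TPM or more there. MIR31 is also missing in 8505C with the control siRNA, in TPC-1 with the NR1D1 vector and in FTC-133 with the empty vector.

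In the 6 libraries with CDKN2A, CDKN2B ran from 0.220 to 1.34 times its level and was the higher of the pair in 3. The lowest ratio was in TPC-1 with the NR1D1 vector. In TPC-1 several genes of the stretch were higher with the NR1D1 vector than with the empty vector. Beside CDKN2A, MTAP was at 17.3 against 8.84 TPM. CDKN2A-DT, a noncoding RNA next to CDKN2A on the opposite strand, was at 3.10 against 1.24 TPM. No counting interval was computed for these low values. The log2 ratio was 0.65 for CDKN2B and 0.90 for MTAP, both under the 2-fold threshold. The exons of CDKN2A and the antisense CDKN2B-AS1 share 341 bases, and CDKN2B-AS1 was at most 2.31 TPM in any library.

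RB1, the pocket protein that holds E2F factors in check, was lower in the treated library of FTC-133, CAL-62 and, by less, 8505C. In FTC-133 it was at 23.2 TPM with the NR1D1 vector against 48.6 TPM with the empty vector, a ratio of 0.476 with an interval of 0.432 to 0.524 and a log2 ratio of -1.04. In CAL-62 it was at 18.0 TPM with the NR1D1 siRNA against 29.6 TPM with the control siRNA, a ratio of 0.607, and the log2 ratio of -0.69 was -0.45 after trimmed mean scaling and -0.30 without mitochondrial genes in the sum. 8505C had 37.6 TPM with the NR1D1 siRNA against 43.1 TPM with the control siRNA, a ratio of 0.872 with an interval of 0.804 to 0.944, and TPC-1 had 65.6 TPM with the NR1D1 vector against 63.3 TPM with the empty vector. The low values thus occurred with NR1D1 raised by label in FTC-133 and with NR1D1 lowered by label in CAL-62 and 8505C. TPC-1 had the highest RB1 in both libraries, and the other 3 lines overlapped in part. On the values as deposited the FTC-133 log2 ratio was -0.98, just under the 2-fold threshold.

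Genes next to or inside RB1 showed a smaller difference in FTC-133. ITM2B was at 71.2 TPM with the NR1D1 vector against 76.3 TPM with the empty vector, and MED4 at 30.6 against 34.4 TPM. SUCLA2, a mitochondrial enzyme subunit, was at 4.33 against 8.02 TPM, a log2 ratio of -0.76. LPAR6, a receptor gene that lies within an RB1 intron, was at 0 against 0.212 TPM. The related pocket protein RBL2 was at 0.388 to 1.70 times the level of RB1 and was the higher one in 4 of 8 libraries, while RBL1 was the lower in all 8.

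TERT was the least abundant member, with 4 to 52 recovered reads per library. FTC-133 had 2.22 TPM with the NR1D1 vector against 2.61 TPM with the empty vector, and TPC-1 had 1.81 against 1.67 TPM. CAL-62 had 0.409 TPM with the NR1D1 siRNA against 0.363 TPM with the control siRNA, from 11 and 12 reads. 8505C had 0.676 TPM with the NR1D1 siRNA against 0.201 TPM with the control siRNA, from 16 and 4 reads, and the ratio of 3.36 had an interval of 1.08 to 13.8. FTC-133 and then TPC-1 were the highest lines on all 3 scales, without overlap between their pairs, while 8505C and CAL-62 overlapped. The counting intervals of FTC-133 and TPC-1 overlap, as do those of 8505C and CAL-62. Beyond 8505C no pair differed by more than its counting interval, and TERT did not pass the filter for the 2-fold count in 8505C and CAL-62. The genes listed near TERT were mixed. The adjacent gene CLPTM1L was at 20.4 to 69.9 TPM in the 8 libraries, and SLC12A7 and LPCAT1 were at 17.3 TPM or more. SLC6A18 was at 0 in all 8, and SLC6A19 and SLC6A3 were at most 0.0763 TPM. TERC, the RNA template of telomerase, was listed at 0 in all 8 libraries. Whether the library preparation and the counting could recover it was not tested, so this 0 does not show that the RNA was absent.

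Set against the whole transcriptome of each pair, few members crossed 2-fold, and with 5 to 7 members a line each count is of 1 gene or none. In 8505C, 1 of 6 members with a mean of at least 1 TPM was at least 2-fold higher with the NR1D1 siRNA, namely HRAS, while 11.9% of 16499 genes were, and 0 members were 2-fold lower against 5.86% of genes. In CAL-62, 0 of 5 members were 2-fold different, against 16.0% of 16230 genes (5.3% higher, 10.7% lower). In TPC-1, 0 of 7 members were, against 11.5% of 16175 genes (6.28% higher, 5.25% lower). In FTC-133, 1 of 7 members was at least 2-fold lower with the NR1D1 vector, namely RB1, while 6.91% of 16501 genes were, and 0 members were 2-fold higher against 9.76%. The median log2 ratio of the members was 0.34 in 8505C, -0.21 in CAL-62, 0.05 in TPC-1 and -0.17 in FTC-133. The CAL-62 median lay within 0.1 of that of all genes, the 8505C median lay above that of all genes, and the FTC-133 median lay below it.

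**Figure D3:**
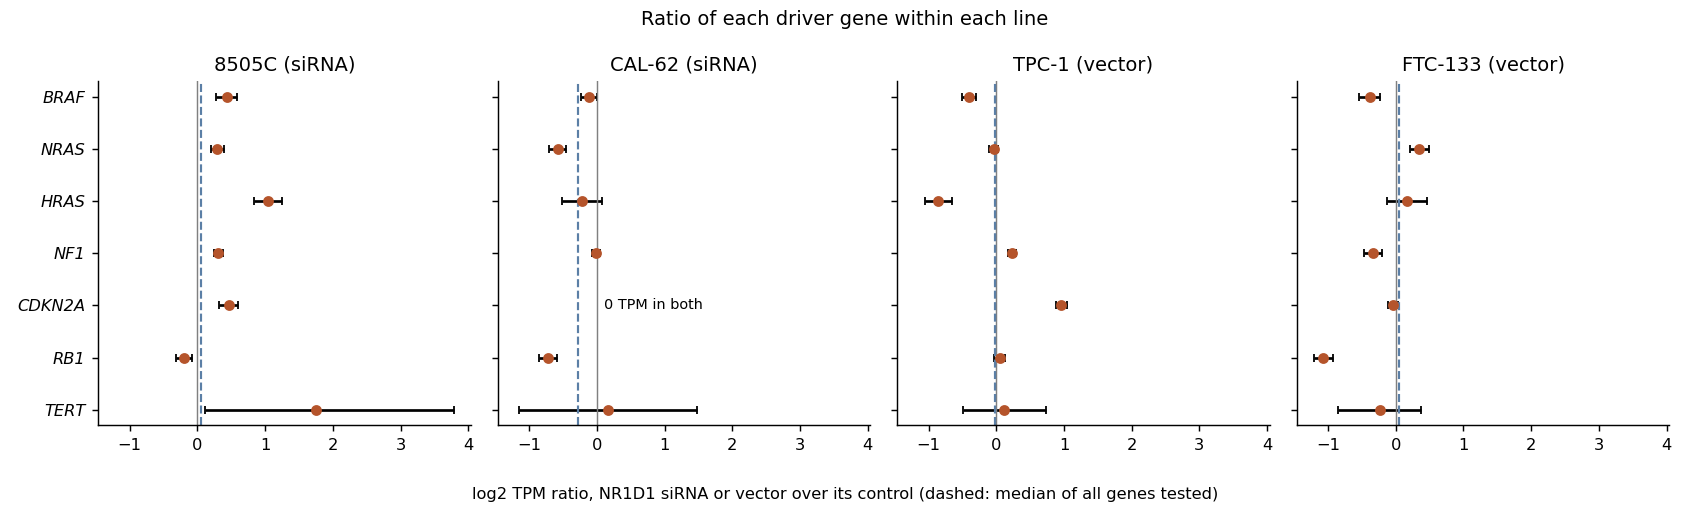
Within-line log2 ratio of TPM of each driver gene (horizontal axis, without the added 1), NR1D1 siRNA or vector over its control, with 95% counting intervals. The dashed line is the median log2 ratio of all genes tested in that line. HRAS lies near 1 in 8505C, CDKN2A near 1 in TPC-1 and RB1 near -1 in FTC-133, and TERT has the widest intervals.

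When the lines served as the replicates, no member passed. limma was fitted on log2(TPM + 1) with a term for each line, over 17595 genes, with Benjamini-Hochberg adjustment over all of them at 0.05. For the siRNA in 8505C and CAL-62 together the change was 0.41 (SE 0.40, limma adjusted p = 0.709) for HRAS and -0.44 (SE 0.35, limma adjusted p = 0.631) for RB1. The other 5 members had limma adjusted p from 0.804 to 0.900. Among them CDKN2A was at 0 in both CAL-62 libraries, so its siRNA change of 0.225 rests on the 8505C pair. For the vector in TPC-1 and FTC-133 the limma adjusted p was 1 for all 7, with changes from -0.49 for RB1 to 0.46 for CDKN2A. A fit over all 4 lines, higher over lower NR1D1 by label, gave changes from -0.37 for HRAS to 0.14 for NRAS, with limma adjusted p from 0.938 to 0.993. Over all genes limma called 0 in each of the 3 comparisons (0.0%), with 2114 (12.0%), 784 (4.46%) and 720 (4.09%) genes at an unadjusted p under 0.05, none of them a member, and smallest adjusted p-values of 0.166, 0.272 and 0.731. The first fit had 2 residual degrees of freedom and the other had 3.

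The genes around the members in their pathways were examined as lists. Of the 19 genes of the RAS-RAF-MAPK core, 2 were at least 2-fold higher in 8505C with the NR1D1 siRNA, where 11.9% of all genes were. MAPK3, the kinase ERK1, was at 73.8 TPM against 35.9 TPM with the control siRNA. RRAS, a RAS relative, was at 192 against 92.1 TPM. After trimmed mean scaling both lay just under 2-fold, at log2 ratios of 0.95 and 0.99. In CAL-62 1 gene was 2-fold lower, where 10.7% of all genes were: RAP1B, another RAS relative, at 7.26 TPM with the NR1D1 siRNA against 16.0 TPM with the control siRNA, and at a log2 ratio of -0.83 after trimmed mean scaling. In FTC-133 1 gene was 2-fold lower, where 6.91% of all genes were. It was SHOC2, a scaffold that helps to activate RAF, at 10.3 TPM with the NR1D1 vector against 24.0 TPM with the empty vector. The list had 0 genes past 2-fold in TPC-1, where 11.5% of all genes were. Its median log2 ratio was 0.14 in 8505C, -0.38 in CAL-62, -0.11 in TPC-1 and -0.03 in FTC-133.

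The negative regulators of RAS were 14 genes: the GTPase-activating proteins and SPRED, LZTR1 and RASSF genes. In 8505C 0 of 12 tested crossed 2-fold, where 17.8% of all genes did. In FTC-133 0 of 12 did, where 16.7% of all genes did. In CAL-62 2 of 13 tested were 2-fold higher, where 5.3% of all genes were, and 1 was 2-fold lower, where 10.7% were. In TPC-1 1 of 12 was 2-fold lower, where 5.25% of all genes were. RASSF1, a RAS effector that acts as a tumour suppressor, was at 9.89 TPM with the NR1D1 vector against 23.5 TPM with the empty vector in TPC-1. In CAL-62 RASAL1 was at 11.4 TPM with the NR1D1 siRNA against 4.66 TPM with the control siRNA, and RASAL2, another GTPase-activating protein, at 8.68 against 20.4 TPM, which was a log2 ratio of -0.93 after trimmed mean scaling. RASSF5 was higher in both siRNA pairs, at 7.16 against 3.19 TPM in 8505C and at 1.96 against 0.279 TPM in CAL-62, with a limma adjusted p of 0.292 over both. The median log2 ratio of the list was 0.43 in 8505C, 0.07 in CAL-62, -0.05 in TPC-1 and -0.14 in FTC-133.

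RAS proteins reach the membrane through lipid modification, and 12 genes of that processing were listed. In 8505C 1 was 2-fold higher, where 11.9% of all genes were. In CAL-62 2 were 2-fold lower, where 10.7% of all genes were. In FTC-133 1 was 2-fold higher, where 9.76% of all genes were. In TPC-1 0 were past 2-fold, where 11.5% of all genes were. ABHD17C, a depalmitoylating hydrolase, was at 28.6 TPM with the NR1D1 vector against 7.97 TPM with the empty vector in FTC-133, a log2 ratio of 1.72. LYPLA1, another depalmitoylating enzyme, was lower in both siRNA pairs, at 79.2 TPM against 156 TPM with the control siRNA in 8505C and at 36.7 against 101 TPM in CAL-62, with a limma adjusted p of 0.289 over both. PDE6D, a carrier of farnesylated proteins, was at 28.4 against 13.4 TPM in 8505C, and FNTB, a subunit of farnesyltransferase, at 1.90 against 4.83 TPM in CAL-62. After trimmed mean scaling these 2 lay under 2-fold, at log2 ratios of 0.97 and -0.88.

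The RB and CDK4/6 list held 28 genes. In 8505C 3 were 2-fold higher with the NR1D1 siRNA, where 11.9% of all genes were. CCND1, the cyclin that activates CDK4 and CDK6, was at 612 TPM against 255 TPM with the control siRNA. The CDK inhibitors CDKN1A and CDKN1C were at 34.4 against 14.2 TPM and at 7.38 against 1.78 TPM. Another 2 were 2-fold lower, where 5.86% of all genes were: CCNE1, a cyclin of CDK2, at 1.42 against 6.12 TPM, and RBL2 at 36.04 against 73.1 TPM. The list's median log2 ratio in 8505C was 0.50, against 0.05 for all genes.

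In CAL-62 4 of 26 tested genes of that list were 2-fold lower with the NR1D1 siRNA, where 10.7% of all genes were, and 0 were 2-fold higher, where 5.3% were. CDK4, the kinase that p16INK4a inhibits, was at 12.9 TPM against 51.2 TPM with the control siRNA, a log2 ratio of -1.91 that was -1.69 after trimmed mean scaling. RBL2 was at 21.1 against 45.2 TPM, the CDK inhibitor CDKN1B at 41.2 against 84.3 TPM and the repressor E2F7 at 18.7 against 40.1 TPM. After trimmed mean scaling these 3 lay under 2-fold, at log2 ratios of -0.83, -0.77 and -0.83. Over both siRNA pairs the change was -1.24 for CDK4, -1.03 for RBL2 and -1.12 for CCNE1, with limma adjusted p of 0.315, 0.318 and 0.302.

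With the vector 0 of 27 genes of the list were past 2-fold in TPC-1, where 11.5% of all genes were. In FTC-133 1 of 28 was 2-fold higher, where 9.76% of all genes were, and 3 were 2-fold lower, where 6.91% were. There E2F2 was at 2.45 TPM with the NR1D1 vector against 0.677 TPM with the empty vector, and CDKN2B, CCNE2 and CCND2 were 2-fold lower. CCNE2, a cyclin of CDK2, was at 0.773 against 2.78 TPM, and CCND2 at 0.0678 against 2.45 TPM. E2F2 was just under 2-fold after trimmed mean scaling, at a log2 ratio of 0.99. RB1 and CDKN2B were therefore both lower in the FTC-133 library with the NR1D1 vector, while CDKN2A differed by less than its counting interval.

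Of the 18 genes of telomerase and the telomere-capping shelterin complex, 17 could be matched to 1 identifier, and PINX1 could not. In CAL-62 5 of the 16 with a mean of at least 1 TPM were 2-fold lower with the NR1D1 siRNA, where 10.7% of all genes were, and 0 were 2-fold higher, where 5.3% were. Of these, 4 encode the protein core of H/ACA particles, which stabilises the telomerase RNA: DKC1 at 26.3 TPM against 54.6 TPM with the control siRNA, NOP10 at 77.5 against 181 TPM, NHP2 at 14.0 against 34.1 TPM and GAR1 at 11.1 against 28.1 TPM. The fifth was PARN, a deadenylase that matures it, at 5.71 against 12.9 TPM. The list's median was -0.70 in CAL-62, against -0.28 for all genes. After trimmed mean scaling it was -0.49, against -0.07 for all genes, and GAR1 alone of the 5 stayed past 2-fold, at -1.04, where 6.7% of all genes were 2-fold lower. The 12 broadly used genes of CAL-62 had a median of -0.72, or -0.48 after that scaling, and 4 of them were 2-fold lower.

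In the other lines the telomerase list moved less. In 8505C 1 of 15 tested genes was 2-fold higher, where 11.9% of all genes were. It was ACD, a shelterin subunit that recruits telomerase, at 24.6 TPM with the NR1D1 siRNA against 10.9 TPM with the control siRNA. In FTC-133 1 of 15 was 2-fold lower, where 6.91% of all genes were. It was GABPA, an ETS-family factor known to act on mutant TERT promoters. GABPA was at 6.71 TPM with the NR1D1 vector against 19.8 TPM with the empty vector there, and TERT was at 2.22 against 2.61 TPM. The list had 0 genes past 2-fold in TPC-1, where 11.5% of all genes were. Its median was -0.20 in 8505C, -0.31 in TPC-1 and 0.08 in FTC-133.

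**Figure D4:**
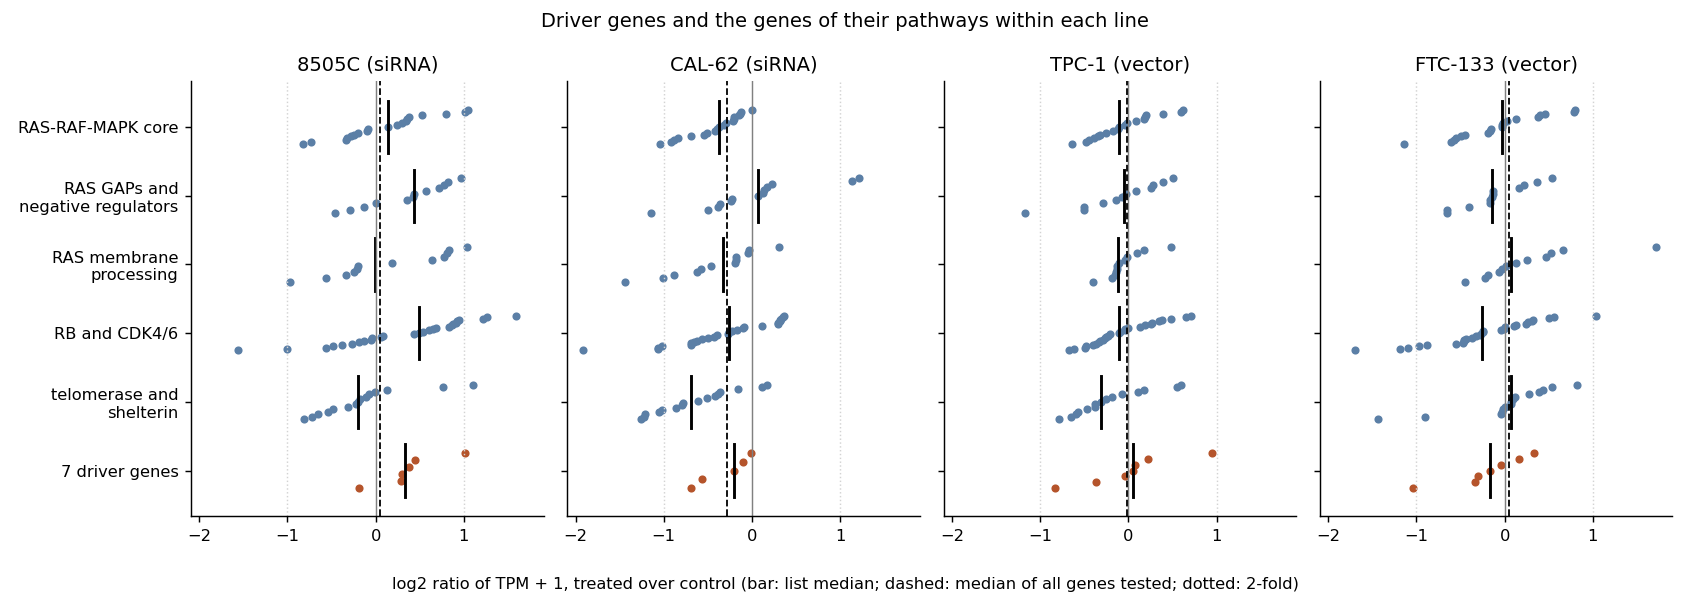
Within-line log2 ratios of TPM + 1, NR1D1 siRNA or vector over control, for the genes of 5 pathway lists (blue points) and the 7 driver genes (brown points) that had a mean of at least 1 TPM in the line. Short bars are list medians, the dashed line is the median of all genes tested and dotted lines mark 2-fold. The telomerase and shelterin list has its lowest median, -0.70, in CAL-62, where the median of all genes is -0.28.

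All 7 members spanned at least 1 on the log2 scale over the 8 libraries, and the genes nearest to each in pattern were found among 12593 protein-coding genes, by the root mean square difference of log2(TPM + 1) centred on each gene's mean. These distances describe 8 libraries that share 4 lines, and nothing follows from them on function. Nearest to BRAF were HELB at 0.126, ZNF318 at 0.134 and ANO7 at 0.156. To NRAS they were IARS2 at 0.172, CTCF and R3HCC1, and to HRAS ZC3H7B at 0.200, SPRED2 at 0.202 and GLIS2. SPRED2, an inhibitor of RAS signalling, was at 88.7 TPM with the NR1D1 siRNA against 49.9 TPM with the control siRNA in 8505C and at 54.0 TPM with the NR1D1 vector against 65.9 TPM with the empty vector in TPC-1.

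NF1 had ARID4B at 0.098, ANKRD36C and ANKRD44 as its nearest genes, and all 3 were lowest in FTC-133. ARID4B was at 4.45 TPM with the NR1D1 vector against 6.57 TPM with the empty vector there, and at 18.6 to 24.2 TPM in the other 6 libraries. RB1 was nearest to IBTK at 0.129, ACBD5 at 0.152 and UBE2W at 0.156, which were all lower with the NR1D1 vector in FTC-133, such as ACBD5 at 13.9 against 40.5 TPM. TERT was nearest to MYO19 at 0.157, PDP2 and CCDC78. CDKN2A had the largest distances, but it also had the widest span, 7.29 on the log2 scale, and the distances were not scaled to the span. LAYN, which was also near 0 in CAL-62, came nearest at 0.539, ahead of DDIT4 at 0.828 and SOD2 at 0.884.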

How the data were processed

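For the siRNA lines the deposited values were TPM, made by the authors from reads counted per gene. Those for TPC-1 and FTC-133 were named TPM in the files but behaved as FPKM: their deposited columns summed to 253330.3 to 261469.4. Each value was multiplied by the union exon length in kilobases of GENCODE release 29. The products summed to 1.001 to 1.005 times 1000000 per column, and FPKM would give a factor near 1. All columns were rescaled to a sum of 1000000. FastQC, MultiQC, Trimmomatic 0.38, featureCounts 2.0.0 and GRCh38 are named in the submitters' processing notes. Aligner, annotation and strandedness are not given in the sources used here. RNA integrity numbers were at least 6.8, per the labels.

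Levels across lines come from tables normalized separately and are description. Reads were recovered as value times exon length over the value of 1 read, with the GENCODE 29 lengths standing in for the authors'; 70.7% to 74.6% of values, and 92.7% to 93.7% of those of 1 to 10 reads, came out within 0.02 of a whole number, and reads of NRAS, HRAS and NR1D1 are approximate. They gave exact 95% Poisson intervals for levels and binomial intervals for ratios, which cover counting error only, and a limit of 3 reads for a count of 0. No count test was run, since whole reads were not recovered for nearly all genes.

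With 1 library per group there was no test within a line: log2 ratios of TPM + 1 were given, and genes past 2-fold were counted among those with a mean of at least 1 TPM over the pair. Across lines, limma 3.58.1 in R 4.3.3 (eBayes with trend) was fitted on all 8 libraries with a term for each cell line, siRNA and vector terms sharing 1 spread, and separately for higher over lower NR1D1 by label; pairs come from the shared cell line. Genes with a mean of at least 1 TPM over the 8 libraries entered, with Benjamini-Hochberg adjustment at 0.05. Nothing says the libraries came from separate cultures. With a term for each line, p-values measure how far the treated and control difference varied from line to line. The spread between replicate libraries of a group was not measured.

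The members and lists were chosen with earlier results of these data known. All members are named; other list genes are named where their log2 ratio reached 1 in size in a line with a mean of at least 1 TPM, and genes of a locus list may be named with their level. Names were matched by Ensembl identifier, 58876 of 58884 with a symbol and 58611 in GENCODE 29. Coordinates are GRCh38, 1-based: BRAF chr7:140719327-140924928 (minus strand), NRAS chr1:114704469-114716894 (minus), HRAS chr11:532242-537287 (minus), NF1 chr17:31094927-31382116 (plus), TERT chr5:1253147-1295069 (minus), CDKN2A chr9:21967753-21995301 (minus) and RB1 chr13:48303726-48599436 (plus). BRAF shares 1239 exon bases with NDUFB2; NRAS, HRAS, TERT and RB1 share none with another gene. All 7 members had a window in the RefSeq promoter table, that of RB1 inside the gene body and not at its annotated start; only those of CDKN2A are printed. Trimmed mean factors were computed without the top and bottom 30% of ratios and 5% of levels. Some list genes are not reported here. The limma step was tested on simulated data. Alternatives were other pseudocounts, filters and scales, each line left out, no line term and fits on 1 approach.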

Additional observations from a re-analysis of the deposited data

Results flagged for a closer look

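NRAS went opposite ways in the 2 siRNA pairs. Its log2 ratio was 0.29 in 8505C and -0.56 in CAL-62, a difference of 0.86, and this difference was not tested. NF1 did so in the vector pairs, at 0.22 in TPC-1 and -0.30 in FTC-133, a difference of 0.52 that was not tested either. Each value rests on 1 library per group. In CAL-62 the NRAS ratio was -0.32 after trimmed mean scaling and -0.17 without mitochondrial genes in the sum. Genes of the mitochondrial genome took 67.8% of TPM with the NR1D1 siRNA against 57.2% with the control siRNA.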

How the results depend on the processing

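In limma, 0 genes were called in all 3 comparisons as reported. A filter at a mean of 5 TPM gave 77 for the siRNA and 7 for the vector, values as deposited gave 18 for the siRNA, and the fit on the siRNA lines alone gave 43. Without the line term, that is without the block that pairs libraries of 1 line, 0 genes were called in each comparison, with a smallest adjusted p of 1 and 160, 100 and 87 genes at an unadjusted p under 0.05; pairing changed no call. With 1 line left out, counts ran from 0 to 0, and no member passed under any alternative run.

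Of the members past 2-fold, HRAS in 8505C was lost after trimmed mean scaling (0 members) and RB1 in FTC-133 on values as deposited (0 members). Over all genes, a mean of 5 TPM gave 991 higher and 408 lower in 8505C, 291 and 1127 in CAL-62, 373 and 319 in TPC-1 and 585 and 395 in FTC-133. CAL-62 had 1297 higher with a pseudocount of 0.1, 1639 after trimmed mean scaling and 3080 without mitochondrial genes. TPC-1 had 1274 lower with no filter, and as deposited TPC-1 had 310 higher and 217 lower and FTC-133 454 and 312.

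The siRNA change of NRAS was 0.057 without mitochondrial genes. With lines left out in turn, siRNA changes ran from -0.10 to 0.37 for BRAF, from -0.21 to 1.02 for HRAS, from -0.01 to 0.30 for NF1 and from -0.56 to 0.29 for NRAS. Vector changes ran from -0.04 to 0.34 for NRAS, from -0.83 to 0.16 for HRAS, from -0.30 to 0.22 for NF1, from -1.04 to 0.05 for RB1 and from -0.036 to 0.95 for CDKN2A. Over 4 lines they ran from -0.16 to 0.31 for CDKN2A and from -0.27 to 0.31 for RB1. A siRNA or vector change with 1 of its 2 lines left out is the log2 ratio of the other line.

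Without mitochondrial genes CAL-62 had the highest BRAF and NF1, at means of 21.3 and 80.4 TPM, so its place among the lines depends on the scale; CDKN2A at 0 does not. Depth limits TERT, with at most 52 reads.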
